A study of Caenorhabditis elegans with 6 samples.

Results

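The centre of chromosome II of Caenorhabditis elegans was described here in chromatin of sorted body wall muscle from L3 larvae. It was taken as the windows on chromosome II whose midpoint lies from 4.9 Mb to below 12.0 Mb of the ce10 assembly. These are 7100 of the 15281 windows on the chromosome and of 100293 in the genome, and they run from position 4900393 to position 12000326, or 7.10 Mb. Windows are 1000 bp wide, and 66 of them 1 bp narrower. No read fell in 7 windows in any library, which left 7093 of 99485 windows for the comparisons. The rule used position alone and no measured value.

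C. elegans chromosomes have no single centromere, and kinetochores form along their length. Each autosome has a gene-dense central part with little meiotic recombination, flanked by arms that are richer in repeats. Methylation of histone H3 lysine 9 is known to be concentrated on the arms, which lie at the nuclear envelope in many cells. MET-2, a SETDB1-like enzyme, places the first methyl groups on this residue, and SET-25 can add the third. H3K27ac, acetylation of lysine 27 of the same histone, marks active promoters and enhancers.

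In ChIC-seq an antibody bound to a histone mark brings a nuclease (MNase), fused to protein A, to the chromatin, and the fragments it cuts are sequenced. H3K27ac was profiled in larvae of the met-2 mutant, allele n4256, and in wild-type larvae of the N2 (Bristol) background (WT), and H3K9me2 and H3K9me3 in WT only. An MNase control was sequenced for met-2 and for WT. The muscle cells of both genotypes were sorted on RFP expressed from the myo-3 promoter, so that they are cells with an active myosin gene of body wall muscle, and carry the transgene. Each group had 1 library and no replicate, so no test was possible and every difference is between libraries.

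Libraries held from 2475550 reads (met-2 control) to 28519008 reads (H3K9me3). The median window in the centre held 261 reads for met-2 H3K27ac, 157 for WT H3K27ac, 220 for H3K9me2, 273 for H3K9me3, 24 in the met-2 control and 80 in the WT control. The met-2 control was thus the thinnest library, with 54 of the 7093 windows without a read, against 5 to 32 windows in the other 5 libraries. To compare libraries, reads were divided by the library total and multiplied by the average total (scaled reads), which gives a mean of 170.7 scaled reads per window genome-wide in each library. Intervals given below are 95% intervals that cover counting error only, since duplicates were removed and reads are not certain to be independent molecules. No gene is named, because no annotation of the ce10 assembly was used, and muscle identity could therefore not be checked against marker genes.

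The centre of chromosome II held a larger part of both H3K27ac libraries than of any other library. It took 8.23% (8.22% to 8.24%) of met-2 H3K27ac reads and 8.69% (8.68% to 8.71%) of WT H3K27ac reads. It took 7.72% of H3K9me2 reads, 7.29% of H3K9me3 reads, 7.91% of met-2 control reads and 7.74% of WT control reads. The centre makes up 7.08% of all windows, so all 6 libraries placed more than this share of their reads there. The Wilson intervals of the 6 shares did not overlap, except that those of H3K9me2 (7.71% to 7.73%) and the WT control (7.72% to 7.76%) did.

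The contrast with the arms of the same chromosome was also largest for H3K27ac. Mean scaled reads per window in met-2 H3K27ac were 197.0 in the centre and 148.7 in the arms, a ratio of 1.32. In WT H3K27ac they were 208.0 in the centre and 140.7 in the arms, a ratio of 1.48. The ratio was thus lower in met-2 than in WT for this mark. For H3K9me2 the means were 184.7 in the centre and 162.6 in the arms (ratio 1.14), and for H3K9me3 174.6 and 160.6 (ratio 1.09). Neither methyl mark was lower in the centre than in the arms on this scale, and both controls were also higher there. The met-2 control averaged 189.4 in the centre and 153.4 in the arms (ratio 1.23), and the WT control 185.3 and 165.8 (ratio 1.12). The ratio of H3K9me3 was therefore below that of the WT control, that of H3K9me2 close to it and that of WT H3K27ac well above it.

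**Figure D1:**
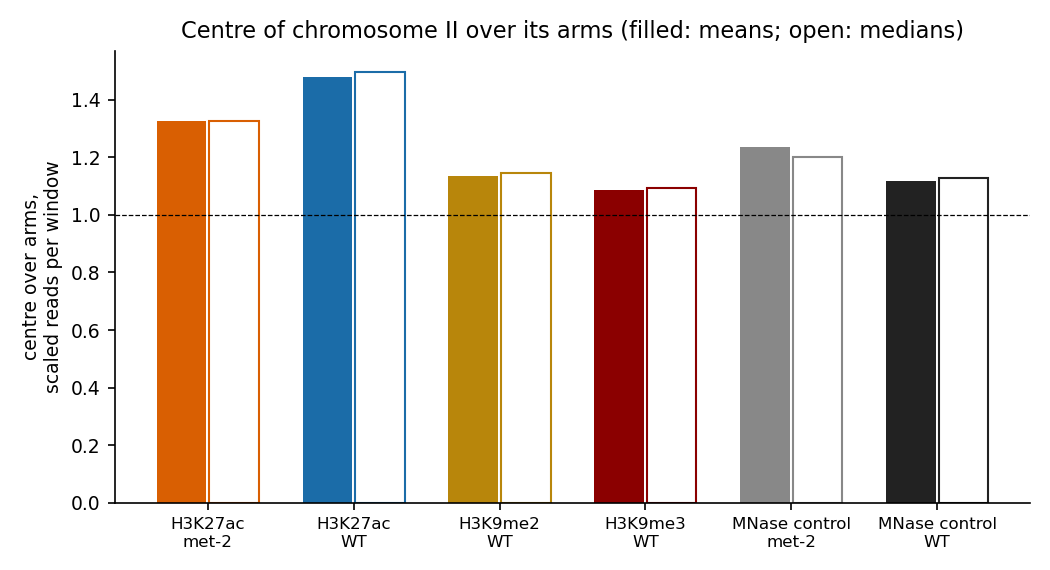
Mean (filled bars) and median (open bars) scaled reads per window in the centre of chromosome II divided by the value in its arms, for each of the 6 libraries; the dashed line marks a ratio of 1. WT H3K27ac has the highest ratio of means (1.48), followed by met-2 H3K27ac (1.32), and H3K9me3 the lowest (1.09).

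Medians gave nearly the same ratios, from 1.09 for H3K9me3 to 1.50 for WT H3K27ac. The arms were not alike. Over the left arm the ratio was 1.38 for met-2 H3K27ac, 1.55 for WT H3K27ac, 1.16 for H3K9me2 and 1.05 for H3K9me3. Over the right arm it was 1.25, 1.39, 1.10 and 1.15 in the same libraries. H3K9me3 was thus nearest to the level of the centre in the left arm, and the other 3 marks were nearest to it in the right arm. Compared with the centres of the other autosomes (23935 windows), the centre of chromosome II held between 0.994 times (H3K9me3) and 1.04 times (WT control) as many scaled reads per window. In scaled reads the segment therefore differed more from its own arms than from other centres.

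Enrichment was taken as log2(scaled reads + 8) of a mark minus the same value of the MNase control of its genotype, and windows above 0.5 were called enriched. In met-2, 2170 of 7093 windows in the centre (30.6%) were enriched for H3K27ac, against 31% of all windows. In WT the count was 3447 windows (48.6%), against 41.8% of all windows. WT H3K27ac was thus the mark whose share in the centre was furthest above that of the genome, while the met-2 share was about that of the genome. H3K9me2 was enriched in 2548 windows (35.9%), against 36.1% of all windows. H3K9me3 was enriched in 2693 windows (38.0%), against 42.7% of all windows, and it was the mark furthest below the genome. In the arms the shares were 29.1% for met-2 H3K27ac, 32.8% for WT H3K27ac, 35.5% for H3K9me2 and 40.9% for H3K9me3. In the centres of the other autosomes they were 32.8%, 48.8%, 35.9% and 39.9% in the same order. The segment was thus at the level of other centres for WT H3K27ac and H3K9me2, and slightly below it for the other marks.

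Median enrichment per window followed the same order. It was 0.16 in the centre and 0.06 in the arms for met-2 H3K27ac, and 0.47 and 0.07 for WT H3K27ac. For H3K9me2 it was 0.18 in the centre and 0.15 in the arms, and for H3K9me3 0.21 and 0.27. The centres of the other autosomes had medians of 0.19 for met-2 H3K27ac, 0.47 for WT H3K27ac, 0.19 for H3K9me2 and 0.26 for H3K9me3. These values depend on how libraries are scaled: scaling by edgeR's TMM factors in place of totals moved the genome-wide median by -0.28 for H3K9me3, -0.29 for WT H3K27ac, -0.16 for H3K9me2 and -0.10 for met-2 H3K27ac. Among windows past the threshold in either direction, the enriched part was 68.0% by totals and 58.4% by TMM for met-2 H3K27ac, and 75.6% and 61.0% for WT H3K27ac. It was 61.9% and 51.4% for H3K9me2, and 62.3% and 45.8% for H3K9me3. Under TMM the median of H3K9me3 in the centre was -0.07, against a genome-wide median of 0.05. TMM multiplies each library by a single factor, so it moves the centre and the genome nearly alike and cannot test the gap between them.

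Each call also rested on which control was used. Of the windows in the centre, 1194 (16.8%) were enriched for met-2 H3K27ac over both controls, and 1303 (18.4%) for WT H3K27ac. For H3K9me2 there were 933 such windows (13.2%), and for H3K9me3 794 (11.2%). Over all windows the same shares were 17.1%, 15.7%, 14.4% and 16.2%, so that in the centre only WT H3K27ac was above the genome. In the arms they were 15.2%, 11.7%, 16.3% and 17.4%. The order of the marks thus differed between the segment and its flanks, with both H3K27ac shares above both methyl shares in the centre and below them in the arms. Of the 2693 windows called for H3K9me3, 29.5% passed over the met-2 control too, against 42.5% of such windows in the arms and 38.0% over the genome.

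Along the segment, reads were summarised in 71 bins of 100 kb. The median of met-2 H3K27ac per bin lay between 155 and 230 scaled reads, and all 71 bins exceeded the median of the 82 arm bins. The median of WT H3K27ac lay between 157 and 233, again with all 71 bins above the median arm bin. For H3K9me2 the range was 132 to 209 and for H3K9me3 122 to 201, with 70 and 67 bins above the median arm bin. In the met-2 control 70 bins and in the WT control 55 bins did so. No bin of the centre reached the highest arm bin for H3K9me3, whereas 36 bins in met-2 and 35 in WT were above every arm bin for H3K27ac.

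The centre was also more even than the arms in every library. The coefficient of variation of the bin medians was 7.19% in the centre and 15.2% in the arms for met-2 H3K27ac, and 8.16% and 19.3% for WT H3K27ac. It was 8.85% in the centre and 11.3% in the arms for H3K9me2, and 8.16% and 17.4% for H3K9me3. Both controls did the same, at 9.09% and 14.8% in met-2 and 11.8% and 14.8% in WT.

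**Figure D2:**
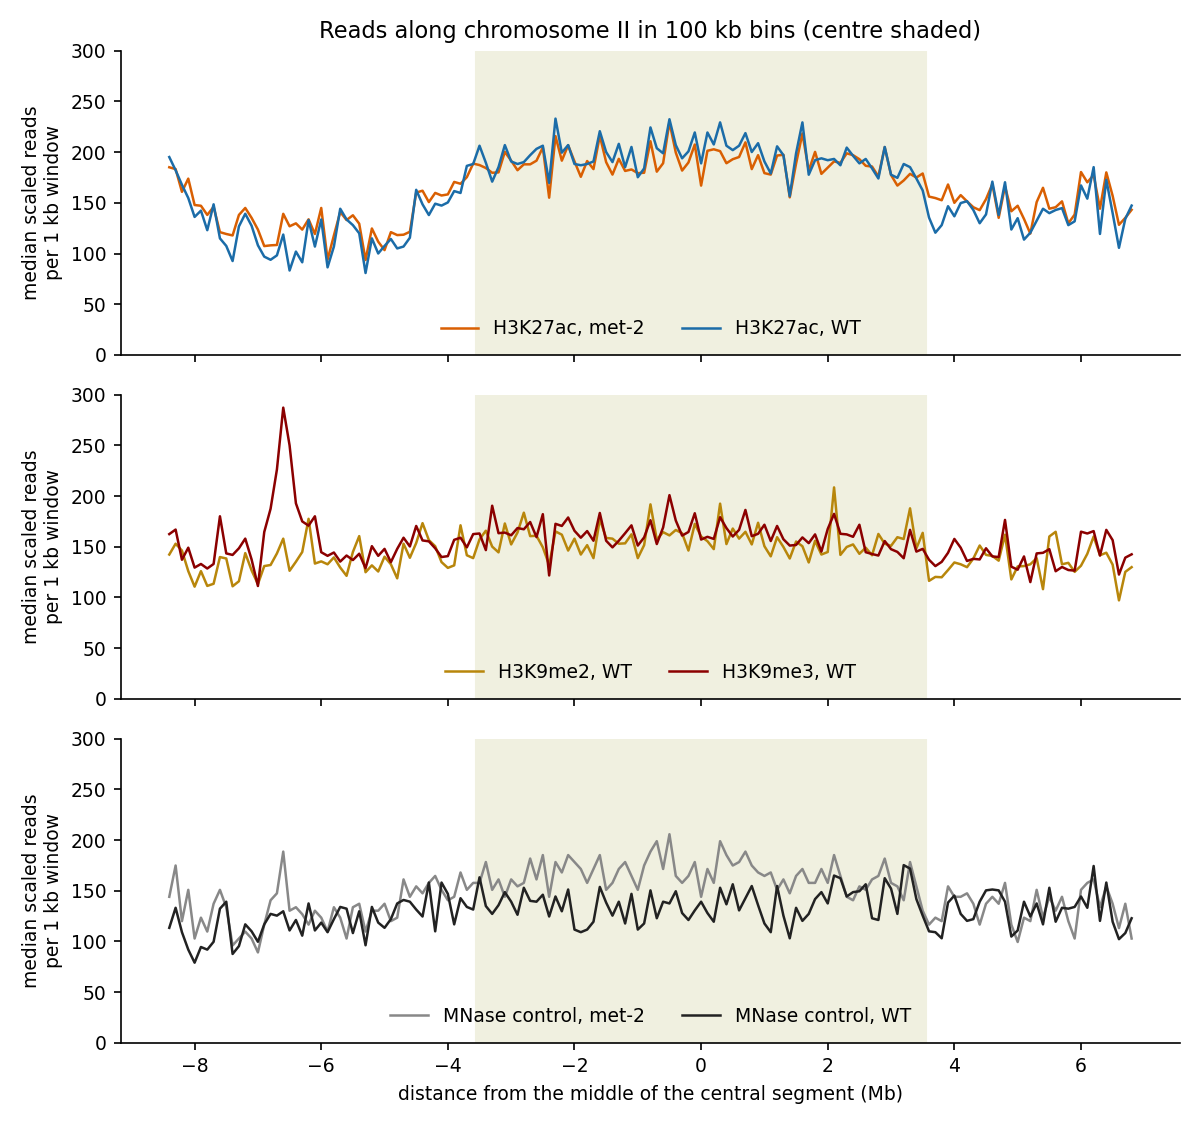
Median scaled reads per window of about 1 kb in bins of 100 kb along chromosome II, plotted against the distance in Mb from the middle of the central segment (shaded), for H3K27ac in met-2 and WT (top), the methyl marks in WT (middle) and the MNase controls (bottom). H3K27ac forms a plateau over the centre, between 155 and 230 scaled reads in met-2 and between 157 and 233 in WT, while H3K9me3 peaks in the left arm and stays between 122 and 201 in the centre.

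A few bins stood out. The bin from 9.8 to 9.9 Mb had the lowest mean in 4 libraries, at 148.5 scaled reads for met-2 H3K27ac, 152.5 for WT H3K27ac, 149.1 in the met-2 control and 124.1 in the WT control. It was also second lowest for both methyl marks, and it holds 2 of the 7 windows without any read. The bin from 6.0 to 6.1 Mb had the lowest means of H3K9me2 (147.6) and H3K9me3 (143.1) and the lowest median of met-2 H3K27ac (155.1). These low bins were therefore low in marks and controls together. The bin from 7.9 to 8.0 Mb was the highest by median for H3K9me3 (200.9), met-2 H3K27ac (229.6) and the met-2 control (205.7), and second highest for WT H3K27ac (232.4). The WT control there had a median of 137.5, its level over the whole centre.

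Not every mark peaked in the same place. The highest median of H3K9me2 was in the bin from 10.5 to 10.6 Mb (208.6), where the WT control had a median of 165.0, also among its 3 highest. From 5.1 to 5.2 Mb H3K9me3 had a median of 190.5, its second highest, while WT H3K27ac had 170.9 and H3K9me2 150.2. The highest median of WT H3K27ac, 233.1, was from 6.1 to 6.2 Mb, next to the low bin.

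At the right border the step in H3K27ac reads was smaller in met-2 than in WT. In met-2 the median was 172.1 scaled reads in the 500 kb inside the right border and 156.9 in the 500 kb outside it. In WT the values were 179.0 inside and 133.0 outside. At the left border they were 186.2 inside and 172.1 outside in met-2, and 188.9 inside and 172.2 outside in WT. The medians inside and outside the left border thus differed little in both genotypes. H3K9me2 had a median of 162.3 inside the right border and 123.5 outside it. H3K9me3 reads were nearly level there, at 147.6 inside and 143.5 outside. The controls fell too, from 144.3 inside to 118.6 outside in WT and from 150.9 to 137.2 in met-2. Over the controls (enrichment as above), the medians inside and outside were 0.17 and 0.16 for WT H3K27ac. They were 0.15 and 0.23 for met-2 H3K27ac, 0.17 and 0.13 for H3K9me2 and -0.0026 and 0.29 for H3K9me3. The step in WT H3K27ac was thus seen in reads and not over the control, where H3K9me3 was higher outside.

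Reads of the H3K27ac libraries alone were compared next, to ask how this mark in the centre differs when MET-2 is missing. The share of the library in the centre was 0.947 times as large in met-2 as in WT (0.945 to 0.949). In the left arm it was 1.06 times and in the right arm 1.05 times as large. The controls moved the other way, with a share in the centre 1.02 times as large in met-2 as in WT, and 0.974 and 0.862 times as large in the left and right arm. Because both libraries are scaled to the same total, a smaller share in one place goes with a larger share in another, and an overall gain or loss of the mark cannot be seen on this scale.

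The difference was small at each place and widespread. Of the 71 bins, 67 had fewer scaled H3K27ac reads in met-2 than in WT, with log2 differences from -0.17 to 0.06 and a median of -0.08. Of the 82 arm bins, 71 had more reads in met-2. In windows summed to 10 kb, 558 of 710 in the centre (78.6%) were below 0 and none passed 0.5 either way. Of all 10015 such sums in the genome, 49.1% were below 0, with 104 (1.04%) above 0.5 and 8 below -0.5. In the arms 559 of 818 (68.3%) were above 0 and 15 passed 0.5. A bin of 100 kb therefore showed the direction more regularly than a bin of 10 kb.

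**Figure D3:**
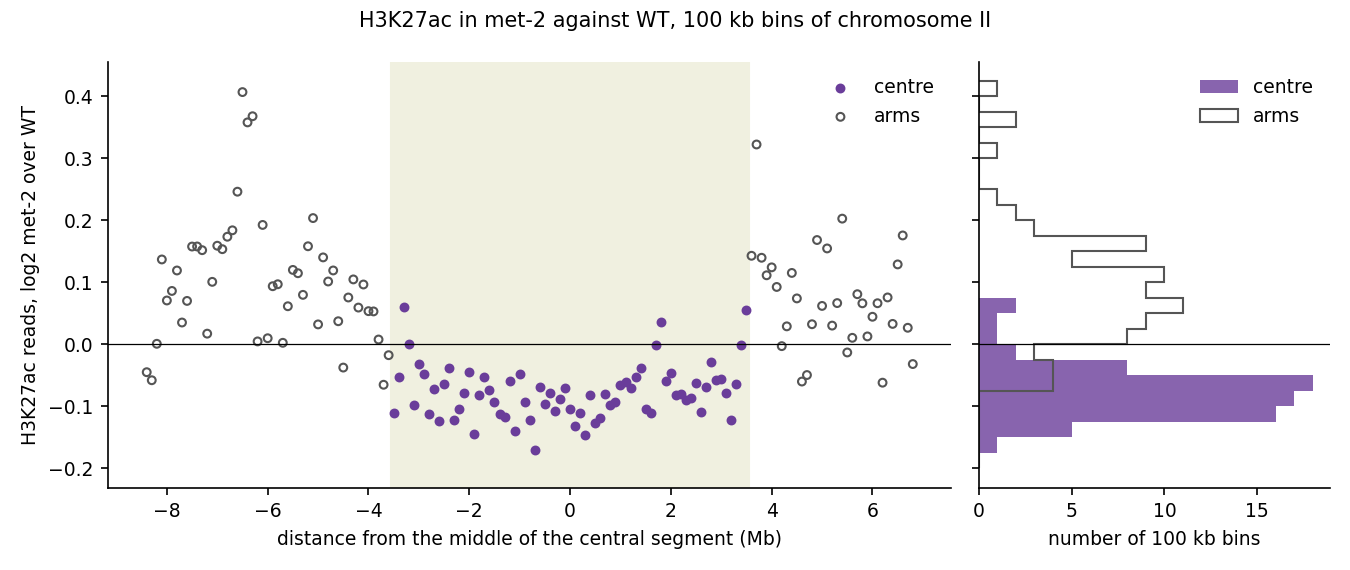
Log2 ratio of scaled H3K27ac reads, met-2 over WT, for each bin of 100 kb of chromosome II, against the distance in Mb from the middle of the central segment (left; shaded, filled points are the centre and open points the arms) and as counts of bins (right). In the centre 67 of 71 bins lie below 0, and in the arms 71 of 82 lie above 0.

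Few single windows passed the threshold on reads alone. In the centre 136 windows (1.92%) were above 0.5 in met-2 minus WT, against 7.16% of all windows. Below -0.5 were 263 windows (3.71%), against 3.07% of all windows. The centre was thus poor in windows with more H3K27ac in met-2, and close to the genome for windows with less. The centres of the other autosomes were much the same, with 2.58% of windows above and 3.56% below. The arms of the chromosome had 1031 windows (12.7%) above and 201 (2.48%) below. The median window differed by -0.06 in the centre and 0.08 in the arms, and TMM scaling put the centre at -0.08 with the genome-wide median at -0.00088. Under TMM 27.1% of the windows past the threshold in the centre were higher in met-2, and 34.1% by totals.

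The bins furthest below 0 lay in the inner part of the segment. From 7.7 to 7.8 Mb the log2 difference was -0.17, with means of 193.2 scaled reads in met-2 and 217.5 in WT. From 8.7 to 8.8 Mb it was -0.15 (212.8 in met-2, 235.5 in WT), and from 6.5 to 6.6 Mb -0.14 (180.8 in met-2, 199.8 in WT). The bins furthest above 0 included one near each border. From 5.1 to 5.2 Mb the difference was 0.06 (183.6 in met-2, 176.1 in WT), and from 11.9 to 12.0 Mb 0.05 (184.8 in met-2, 177.9 in WT). The third, from 10.2 to 10.3 Mb, had 209.7 in met-2 and 204.5 in WT. By steps of 1 Mb the median window differed by -0.05 at 4.9 to 5.9 Mb, -0.09 at 7.9 to 8.9 Mb and -0.05 at 10.9 to 11.9 Mb. In the 500 kb inside the left border it differed by -0.03, and in the 500 kb inside the right border by -0.03. Outside the right border it was 0.18, and outside the left border 0.01.

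The other autosomes showed the same contrast in these libraries. The median window of the centre was -0.06 on chromosomes I and II, -0.08 on III, -0.03 on IV and -0.02 on V. In the arms it was 0.04 on I, 0.08 on II, 0.05 on III, 0.08 on IV and 0.08 on V. Chromosome II was therefore neither the highest nor the lowest for its centre, and its arms were the highest by a narrow margin.

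Within the centre the difference grew with the H3K9me2 and H3K9me3 reads of the window in WT. The windows were split into 4 equal groups by reads. From the fewest to the most H3K9me2 reads, the median difference was 0, -0.04, -0.10 and -0.11. By H3K9me3 reads it was -0.04, -0.05, -0.06 and -0.10. By reads of the met-2 control, made without an antibody to a mark, it was -0.03, -0.04, -0.06 and -0.11. All 3 splits ran the same way, the control included. The arms ran downward too, from 0.21 to 0.0056 by H3K9me2, from 0.14 to 0.051 by H3K9me3 and from 0.14 to 0.035 by the met-2 control. The order was thus not particular to the centre. In the lowest group of the centre by H3K9me2, median H3K27ac reads were 154.7 in met-2 and 154.1 in WT. In its highest group they were 224.9 in met-2 and 244.9 in WT. The part that the level of H3K27ac itself plays in this order was not tested.

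Measured over the controls the difference looked larger. H3K27ac enrichment fell in met-2 past the threshold of 0.5 in 2902 windows of the centre (40.9%), against 36.7% of all windows, and was higher past it in 1706 (24.1%), against 28.2% of all windows. The median was -0.26 in the centre and 0.04 in the arms. The controls themselves moved with it: the met-2 control exceeded the WT control past the same threshold in 2744 windows (38.7%), against 37.9% of all windows, and below it in 1831 (25.8%), against 27% of all windows. Their median difference in the centre was 0.21, against -0.06 for the H3K27ac reads. Under TMM the median difference of enrichment in the centre was -0.08 and that of the controls 0.0022. Of the windows past the threshold, 37.0% by totals and 46.2% by TMM were higher in met-2 for the enrichment, and 60.0% and 49.9% for the control.

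The controls also differed in shape along the segment. The mean of the met-2 control was 198.4 scaled reads at 7.9 to 8.9 Mb and 201.5 at 10.9 to 11.9 Mb. The mean of the WT control was 172.3 and 223.4 at the same places. Without the window at 11027336 to 11028335, which held the most reads, the second stretch averaged 177.0 in the met-2 control and 196.4 in the WT control. The met-2 control was then lower in the second stretch than in the first, and the WT control higher. Summed over these stretches the met-2 control was above the WT control by 0.20 at 7.9 to 8.9 Mb and below it by a log2 difference of -0.15 at 10.9 to 11.9 Mb, with or without that window. Enrichment of WT H3K27ac was 0.35 in the first stretch and -0.12 in the second, while its mean scaled reads were 219.4 and 206.1. Without the window of most reads the second stretch had an enrichment of -0.03 and a mean of 192.6. Either way the fall of this enrichment between the stretches was larger than that of the reads on the log2 scale. Across the 71 bins the medians of the 2 controls had a Spearman rho of 0.0967, and those of the 2 H3K27ac libraries 0.834.

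Across the 7093 windows, the libraries shared most of their ranking where the antibody was the same. Spearman rho was 0.862 between met-2 and WT H3K27ac in the centre and 0.869 in the arms. H3K9me3 ranked windows of the centre much as H3K27ac did, with rho of 0.739 with met-2 H3K27ac and 0.722 with WT H3K27ac. In the arms these values were 0.632 and 0.619. H3K9me2 and H3K9me3 had a rho of 0.484 in the centre and 0.559 in the arms, and the controls of met-2 and WT 0.325 and 0.425. Windows also share base composition and mappability, so these are descriptions only.

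Calls of different marks fell on the same windows, and all 3 WT marks share 1 control. Both methyl marks were called in 1849 windows of the centre (26.1%), H3K9me2 alone of the methyl marks in 699 (9.85%), H3K9me3 alone in 844 (11.9%) and neither in 3701 (52.2%). Over all windows these shares were 27.5%, 8.58%, 15.2% and 48.7%, so that H3K9me3 alone was somewhat rarer in the centre. Of the 2693 windows called for H3K9me3, 2510 (93.2%) were also called for WT H3K27ac. This share was 67.7% in the arms and 78.3% over all windows. A low count in the shared control raises all 3 calls of a window at once. H3K27ac only was called in 614 windows (8.66%), against 5.44% of all windows and 3.23% in the arms. All 3 marks were called in 1785 (25.2%), against 23.5% of all windows and 19.8% in the arms. By reads alone, H3K27ac differed between met-2 and WT by a median of -0.15 in the windows called for H3K27ac only. In those called for all 3 marks the median was -0.03. These medians were -0.09 and 0.08 in the arms, and -0.12 and 0.02 over all windows. The windows were called on the WT H3K27ac reads that also enter the difference, so the medians are not independent of the calls.

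Runs of at least 5 consecutive windows enriched for H3K9me2, H3K9me3 or both were counted as domains. The centre held 132 domains with 858 windows (12.1%), the longest of 13 windows. The arms held 170 with 1141 windows (14.1%), the longest of 23, and 15.8% of all windows were in domains. The domain with 13 windows ran from 9540350 to 9553349 on chromosome II. It had 2610 H3K9me2 and 4242 H3K9me3 reads, or means of 142.9 and 194.3 scaled reads per window, while the met-2 control averaged 152.5 and the WT control 82.3. Over the WT control its enrichment was 0.79 for H3K9me2 and 1.23 for H3K9me3. Over the met-2 control it was -0.09 and 0.35, so that only H3K9me3 stayed above 0.

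The next domains, of 12 windows each, changed in the same manner. From 5255390 to 5267389, enrichment over the WT control was 0.58 for H3K9me2 and 1.19 for H3K9me3, and over the met-2 control -0.50 and 0.11. From 7380370 to 7392369 the values were 0.85 and 1.09 over the WT control, and -0.26 and -0.02 over the met-2 control. The WT control averaged 85.5 and 82.5 scaled reads per window in them, below its median of 137.5 in the centre. Domains were called over the WT control and the longest were then taken, so a low WT control in them is tied to that choice.

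A single window held the most reads of the segment in all 6 libraries. It lies at 11027336 to 11028335 and had 16816 reads for met-2 H3K27ac, 11036 for WT H3K27ac, 18639 for H3K9me2, 29402 for H3K9me3, 3601 in the met-2 control and 15833 in the WT control. That is between 64.4 times (met-2 H3K27ac) and 198 times (WT control) the median of the library in the centre. The windows beside it held far fewer, with 244 and 259 reads for met-2 H3K27ac and 158 and 16 in the WT control. It was the only window of the centre above 5 times the median in all 6 libraries, and the arms of chromosome II had none, against 23 in all windows. Every mark was below its control there, with enrichments of -1.02 for met-2 H3K27ac, -0.99 for WT H3K27ac, -1.04 for H3K9me2 and -0.64 for H3K9me3. It held 0.87% to 2.07% of the reads of the segment. Without it the ratios over the arms were 1.31 for met-2 H3K27ac, 1.46 for WT H3K27ac, 1.12 for H3K9me2, 1.07 for H3K9me3, 1.21 for the met-2 control and 1.09 for the WT control. It also set the bin from 11 to 11.1 Mb, which had the highest mean in all 6 libraries.

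Spikes in 1 library were found for H3K9me2 and for both controls. In these libraries, windows above 5 times the median, whether shared or not, were about as frequent as in the whole genome. Above 5 times the median of the centre were 34 windows for H3K9me2, 1 each for H3K9me3, met-2 H3K27ac and WT H3K27ac (the window of most reads), 10 in the met-2 control and 117 in the WT control. These are 0.479% of the windows of the centre for H3K9me2, against 0.495% of all windows above the same level. For the met-2 control they are 0.141%, against 0.146% of all windows, and for the WT control 1.65%, against 1.48%. In 9 of the H3K9me2 windows, 2 of the met-2 control windows and 50 of the WT control windows the other 5 libraries were at or below 2 times their medians. Over all 99485 windows the counts at the same levels were 119, 10 and 629. The highest of the 9 H3K9me2 windows of the centre, at 10966337 to 10967336, had 3060 H3K9me2 reads, 13.9 times the median. It had 472 reads for H3K9me3, 383 for met-2 H3K27ac, 244 for WT H3K27ac, 34 in the met-2 control and 134 in the WT control, or 1.42 to 1.73 times their medians. Other H3K9me2 windows of this kind lay at 6146382 to 6147381 (1477 reads) and at 8870356 to 8871355 (1350 reads).

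The window at 8587359 to 8588358 had the highest H3K9me2 enrichment, 4.13. It held 1283 H3K9me2 reads, 5.83 times the median. It had 51 reads in the met-2 control, 2.12 times the median, and 26 in the WT control, 0.325 times the median. Over the met-2 control the H3K9me2 enrichment was 1.36. The window at 8870356 to 8871355 had an enrichment of 3.76 over the WT control and 3.04 over the met-2 control. It thus stood out over either control, while the value of the first window fell by more than 2 when the control was changed.

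The lowest enrichments of the WT marks were in windows with many WT control reads. At 11759330 to 11760329 the met-2 control had 18 reads, 0.75 times its median, and the WT control 2002 reads, 25.03 times its median. H3K9me2 had 1177 reads there (5.35 times the median), H3K9me3 300, met-2 H3K27ac 49 and WT H3K27ac 26. The enrichment of WT H3K27ac was -6.42 and that of H3K9me3 -4.21. The neighbouring window, at 11758330 to 11759329, had 2 reads in the met-2 control and 498 in the WT control, and held the highest H3K27ac change over the controls, 4.99, with 17 reads in met-2 and 14 in WT. The window on the other side, at 11760330 to 11761329, had no read in any library. At 7679368 to 7680367 the met-2 control had 19 reads and the WT control 842. For met-2 H3K27ac the lowest enrichment was -2.36, at 10361343 to 10362342, with 43 reads for the mark and 28 in the met-2 control. It was thus a window with few reads of the mark and a control near its median.

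**Figure D4:**
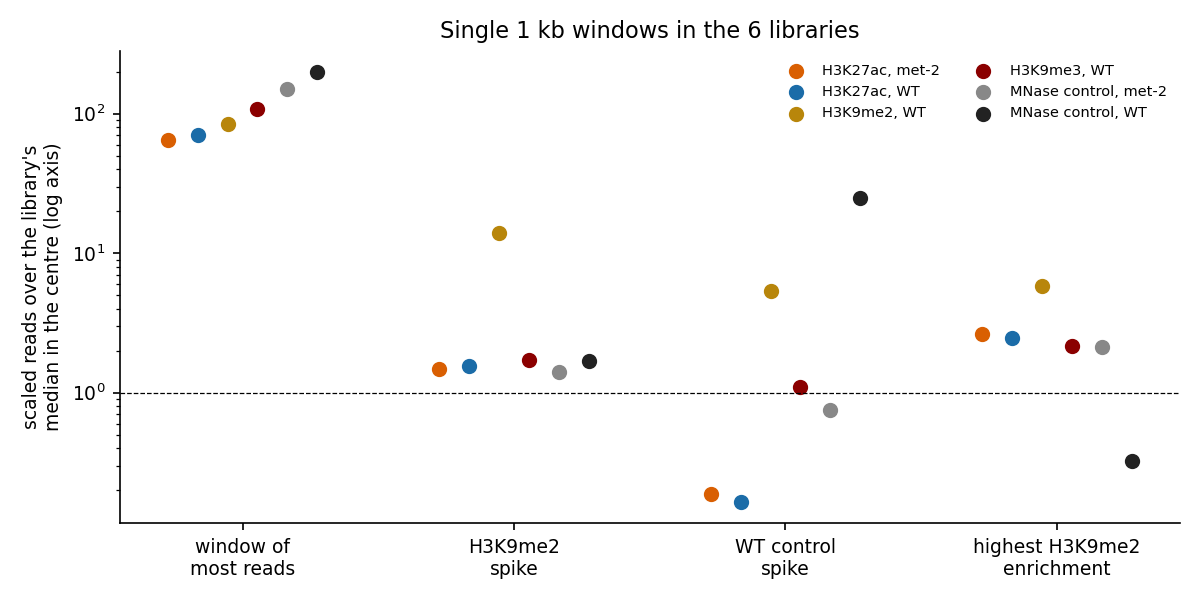
Scaled reads of the 6 libraries in 4 single windows of the centre of chromosome II, divided by the median of each library in the centre (log axis; the dashed line marks the median). The window of most reads is high in all libraries (64.4 to 198 times), the H3K9me2 spike only for H3K9me2 (13.9 times), the WT control spike in the WT control (25.03 times) and H3K9me2 (5.35 times), and the window of highest H3K9me2 enrichment is low in the WT control (0.325 times).

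For H3K27ac the windows of most reads after that at 11027336 were moderate. At 7931365 to 7932364 there were 848 reads in met-2 and 630 in WT, with 204 in the met-2 control and 406 in the WT control. At 11917328 to 11918327 there were 935 reads in met-2 and 494 in WT, with 75 and 294 in the controls of met-2 and WT, and 1067 H3K9me3 reads. The highest enrichment in met-2 was at 10798339 to 10799338, with 264 H3K27ac reads and 0 control reads in met-2. Against a floor of 3 reads in that control it was 9.28-fold higher, and the window at 10712339 to 10713338, with 194 reads against 0, 6.82-fold higher. These windows were chosen as extremes in the thinnest library, so the folds are not lower bounds. In the WT control they had 88 and 22 reads, and over that control the log2 enrichments of met-2 H3K27ac were 0.32 and 1.69.

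The largest differences in H3K27ac reads between the genotypes were near 1 on the log2 scale. Of these 6 windows, 4 had 39 reads or fewer in WT, while those at 11641331 and 8625359 had ordinary depth. At 5252390 to 5253389 there were 145 reads in met-2 and 39 in WT, a log2 difference in scaled reads of 1.00 (0.49 to 1.51). It was 0.99 (0.27 to 1.72) at 5568387 to 5569386, with 76 reads in met-2 and 19 in WT, and 0.95 (0.30 to 1.60) at 10636340 to 10637339, with 90 and 24. On the low side, 11641331 to 11642330 had 121 reads in met-2 and 156 in WT, a difference of -1.08 (-1.42 to -0.74). At 6997374 to 6998373 there were 24 and 36 reads (-1.06, with an interval of -1.80 to -0.31), and at 8625359 to 8626358 there were 153 and 179 (-0.96, with an interval of -1.27 to -0.65). These are the extremes of 7093 windows, chosen for their difference, and their intervals do not allow for that choice.

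Adjacent windows differed more in the controls than in the marks. The median step between neighbours was 0.39 on the log2 scale for met-2 H3K27ac, 0.43 for WT H3K27ac, 0.59 for H3K9me2, 0.43 for H3K9me3, 0.69 in the met-2 control and 0.81 in the WT control. The WT control stepped more than the met-2 control, with a median of 24 reads per window in the met-2 control and 80 in the WT control. Single windows called over a control therefore vary on the scale of the threshold of 0.5.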

How the data were processed

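The deposited values are raw read counts of 6 ChIC-seq libraries in windows of about 1 kb of ce10. Per the methods, the authors trimmed reads (Trimmomatic 0.39), aligned them with bowtie2, removed duplicates with the tool of Bismark and counted with QuasR. The methods name windows of 500 bp, and how reads with several matching places were treated is not given in the sources used here. Repeats are therefore uncertain, and removing duplicates can lower very high counts. The use of molecular identifiers at that step is not stated. The 808 windows without a read were left out. Counts were scaled to the average total of 16977530 reads, 8 was added and log2 taken. Shares carry Wilson intervals. Named windows were the 3 with the most reads per library and the 3 highest and lowest per measure among windows averaging at least 20 scaled reads, at least 10 kb apart. Bins were ranked likewise, and the 3 longest domains were taken. Windows with spikes in 1 library, and neighbours of named windows, were picked after their values were seen. The segment, measures and lists were chosen with earlier results of these data known. Alternatives were a pseudocount of 1, a minimum of 20 reads, sums of 10 windows, a threshold of 1, TMM (edgeR 4.0.16), totals that leave out mitochondrial reads and the top 1% of control windows, the borders of the study and the control of the other genotype. Settings for named windows and the ratios and means without the window of most reads were chosen after seeing the data. Scripts used Python 3.11.15, pandas 2.3.3 and scipy 1.17.1, and were tested on simulated counts.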

Additional observations from a re-analysis of the deposited data

How the results depend on the processing

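No paired analysis was possible because no group holds more than 1 library. Of 108 alternatives to the values for the whole segment, 58 were counted as the same, 46 as moved and 4 turned the sign. These counts do not rank the size of a shift. The WT H3K27ac share, 48.6% in the main setting and 34.01% over the other genotype's control, was counted as the same. The H3K9me2 ratio over the arms, 1.136 in the main setting and 1.131 with the study's borders, was counted as moved. A pseudocount of 1 and the minimum of 20 reads were among those counted as the same, the ratios over the arms aside. In sums of 10 windows, 5.49% were enriched for met-2 H3K27ac, 26.9% for WT H3K27ac, 14.4% for H3K9me2 and 13.2% for H3K9me3. Of these sums, 7.46% had a higher and 22.8% a lower H3K27ac enrichment in met-2, the reads alone passed 0.5 in 0%, and median enrichments were 0.085, 0.26, 0.055 and -0.026 in the same order of marks. At a threshold of 1, the enriched shares were 12.5%, 27.5%, 17.4% and 19.6%, the change in enrichment was higher in 12.8% and lower in 23.1%, and the reads alone were higher in 0.0141% and lower in 0.0846%. Over the other genotype's control, 46.4% of windows were enriched for met-2 H3K27ac, 34.01% for WT H3K27ac, 25.7% for H3K9me2 and 22.6% for H3K9me3. The change in enrichment then passed 0.5 upward in 36.9% and downward in 28.04%. Upward changes thus outnumbered downward ones, the reverse of the main setting. Medians over that control were 0.42 for met-2 H3K27ac, 0.20 for WT H3K27ac, -0.061 for H3K9me2 and -0.026 for H3K9me3. TMM gave medians of 0.060, 0.18, 0.024 and -0.071, and totals that leave out mitochondrial reads and top control windows 0.10, 0.38, 0.12 and 0.14. Ratios over the arms without low windows and top control windows were 1.30 for met-2 H3K27ac, 1.45 for WT H3K27ac, 1.11 for H3K9me2, 1.06 for H3K9me3, 1.19 for the met-2 control and 1.09 for the WT control. Without the window of most reads they were 1.31, 1.46, 1.12, 1.07, 1.21 and 1.09. With the study's borders the ratio was 1.49 for WT H3K27ac, 1.13 for H3K9me2 and 1.12 for the WT control. Of 102 values of single windows under 3 settings, 70 were counted as the same, 21 as moved and 11 turned their sign, all 11 with the control of the other genotype. These were H3K9me2 at 11758330 (2.00), H3K9me3 at 11759330 (0.51), WT H3K27ac at 11601331 (-0.75) and 7679368 (0.35) and met-2 H3K27ac at 10749339 (-0.46), and the H3K27ac change at 11758330 (-5.64), 10749339 (-4.29), 10576341 (-3.15), 8074364 (2.64), 11601331 (3.71) and 6580378 (2.71). Without the window of most reads, met-2 H3K27ac enrichment at 10.9 to 11.9 Mb was 0.061, against -0.035 with it. The cause was not tested. The met-2 control, with a median of 24 reads per window, limits every value that uses it, and 1 library per group leaves the spread between replicates unknown.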
